A study of Mus musculus with 3 samples.

Results

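Long intergenic noncoding RNA (lincRNA) genes were described across 3 organs of the mouse. The members were the genes with the GENCODE M21 biotype lincRNA and a locus of 200 bp or more. H19 and Meg3, which carried that biotype, were set aside by name, and 1028 of the 36809 gene identifiers found in all 3 tables remained. The members were chosen by annotation and not by their level. The donors were C57BL/6 males, 11 weeks old, with no treatment named, and brain, liver and whole testis each gave 1 library of polyadenylated RNA made with a strand-specific protocol. With 1 library per organ there was no replicate check, so no p-value is given, and the differences compare these libraries. Levels are FPKM, the number of sequenced fragments scaled by transcript length and by the library's mapped fragments, and can be compared between genes because they are set per length. In whole organs, fewer cells of a type and less RNA per cell cannot be told apart.

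LincRNAs are transcribed by RNA polymerase II from their own promoters between protein-coding genes, are mostly spliced and polyadenylated, and carry no long open reading frame. Some act at the chromosome from which they are transcribed, some host small RNAs in their introns or exons, and for most no function is known. They are known for low levels and for expression in few tissues, and the testis, with its spermatogonia, spermatocytes and spermatids, is known for expressing many of them.

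Promoter windows of 300 bases, most of them upstream of the annotated start, were available from RefSeq for 494 of the 1028 members by symbol. Those below give examples of the groups of genes described. The first 2 belong to highly expressed genes that were restricted to testis, and are poor in CpG dinucleotides. The next belongs to a gene restricted to brain, the next to the gene restricted to liver, and the next to a gene expressed in all 3 organs. The last 5 belong to testis genes that start close to a protein-coding gene on the other strand or that hold a cyclic AMP response element (CRE); these 5 were chosen after their values were seen. Capitals mark every match, on either strand, to the CRE TGACGTCA, its shorter core TGACGT, the MYB element GGCAGTT, the X-box GTTGCCATG, the TATA letters TATAAA, the GC box GGGCGG, the HNF4 letters CAAAGTCCA, the HNF1 letters GTTAATNA and the REST letters TTCAGCACC. Each is given 5′ to 3′ on the strand of its lincRNA gene.
1700010D01Rik: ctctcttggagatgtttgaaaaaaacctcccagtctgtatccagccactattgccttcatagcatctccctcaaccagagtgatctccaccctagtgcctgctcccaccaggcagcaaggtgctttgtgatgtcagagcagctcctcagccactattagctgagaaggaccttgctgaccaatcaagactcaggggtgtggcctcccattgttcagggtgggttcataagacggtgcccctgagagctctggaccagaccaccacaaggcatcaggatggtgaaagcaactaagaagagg
4930571K23Rik: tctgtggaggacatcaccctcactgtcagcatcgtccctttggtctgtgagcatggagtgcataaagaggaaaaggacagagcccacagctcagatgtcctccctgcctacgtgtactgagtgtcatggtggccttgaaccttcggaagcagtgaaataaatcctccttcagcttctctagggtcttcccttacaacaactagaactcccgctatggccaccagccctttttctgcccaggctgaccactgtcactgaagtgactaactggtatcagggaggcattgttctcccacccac
C130071C03Rik: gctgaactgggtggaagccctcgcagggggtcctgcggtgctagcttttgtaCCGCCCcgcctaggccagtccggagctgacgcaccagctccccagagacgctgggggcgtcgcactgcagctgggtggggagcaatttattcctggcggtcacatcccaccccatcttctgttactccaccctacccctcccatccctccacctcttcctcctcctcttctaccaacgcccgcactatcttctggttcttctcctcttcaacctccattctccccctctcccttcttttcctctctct
9030622O22Rik: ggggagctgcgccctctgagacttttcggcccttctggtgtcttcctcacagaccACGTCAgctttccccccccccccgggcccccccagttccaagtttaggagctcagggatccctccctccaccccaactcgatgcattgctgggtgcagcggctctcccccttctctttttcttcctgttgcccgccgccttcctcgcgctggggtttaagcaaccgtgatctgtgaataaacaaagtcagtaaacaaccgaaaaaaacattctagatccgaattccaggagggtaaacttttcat
Snhg12: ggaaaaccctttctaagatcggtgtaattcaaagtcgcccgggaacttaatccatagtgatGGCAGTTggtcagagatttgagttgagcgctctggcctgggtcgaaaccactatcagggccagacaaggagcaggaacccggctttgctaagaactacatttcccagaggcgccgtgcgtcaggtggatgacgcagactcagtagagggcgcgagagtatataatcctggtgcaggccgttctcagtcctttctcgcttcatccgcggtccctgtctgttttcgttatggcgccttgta
1700046C09Rik: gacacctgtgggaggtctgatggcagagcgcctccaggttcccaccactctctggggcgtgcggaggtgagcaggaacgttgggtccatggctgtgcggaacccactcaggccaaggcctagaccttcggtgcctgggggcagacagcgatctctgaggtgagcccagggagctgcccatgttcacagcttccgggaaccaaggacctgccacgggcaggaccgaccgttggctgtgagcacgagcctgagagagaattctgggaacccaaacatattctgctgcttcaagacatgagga
1700095J07Rik: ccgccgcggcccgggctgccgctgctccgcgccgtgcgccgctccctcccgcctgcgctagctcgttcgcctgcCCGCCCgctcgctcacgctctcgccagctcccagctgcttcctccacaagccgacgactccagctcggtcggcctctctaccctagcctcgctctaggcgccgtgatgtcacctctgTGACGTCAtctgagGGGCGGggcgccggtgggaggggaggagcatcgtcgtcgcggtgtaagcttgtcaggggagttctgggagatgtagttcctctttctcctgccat
Gm11335: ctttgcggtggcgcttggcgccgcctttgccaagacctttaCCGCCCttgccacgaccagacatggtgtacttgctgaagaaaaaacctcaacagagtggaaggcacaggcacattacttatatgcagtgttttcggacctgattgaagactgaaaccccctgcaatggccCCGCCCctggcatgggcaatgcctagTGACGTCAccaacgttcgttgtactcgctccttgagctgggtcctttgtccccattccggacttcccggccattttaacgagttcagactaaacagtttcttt
Gm11608: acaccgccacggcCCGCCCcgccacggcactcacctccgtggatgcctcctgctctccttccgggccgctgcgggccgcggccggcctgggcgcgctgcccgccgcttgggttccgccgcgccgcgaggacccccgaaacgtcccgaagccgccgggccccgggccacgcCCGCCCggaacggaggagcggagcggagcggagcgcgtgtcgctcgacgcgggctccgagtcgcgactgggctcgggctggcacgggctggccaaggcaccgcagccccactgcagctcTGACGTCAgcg
4930515B02Rik: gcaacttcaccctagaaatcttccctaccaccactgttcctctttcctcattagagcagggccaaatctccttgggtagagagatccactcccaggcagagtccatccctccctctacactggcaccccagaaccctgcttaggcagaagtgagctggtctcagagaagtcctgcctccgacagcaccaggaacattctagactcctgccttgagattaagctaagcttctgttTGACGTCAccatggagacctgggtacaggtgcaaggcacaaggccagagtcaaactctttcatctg
In GRCm38.p6, the build of the RefSeq table, the windows are those of 1700010D01Rik (chrX:95733216-95733515, minus strand), 4930571K23Rik (chr7:125368611-125368910, plus strand), C130071C03Rik (chr13:83721131-83721430, plus strand), 9030622O22Rik (chr2:148040437-148040736, minus strand), Snhg12 (chr4:132308428-132308727, plus strand), 1700046C09Rik (chr11:14599176-14599475, minus strand), 1700095J07Rik (chr6:30304365-30304664, plus strand), Gm11335 (chr13:23530879-23531178, minus strand), Gm11608 (chr1:63273207-63273506, minus strand) and 4930515B02Rik (chr4:140872443-140872742, plus strand). The full CRE is read the same on both strands and contains the shorter core.

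The organ labels were compared with marker genes. Summed over 8 testis markers (among them the protamines Prm1 and Prm2), the level was 40430 FPKM in testis, compared with 33.4 in brain and 0.323 in liver, where Prm1 and Sycp3 were listed at 0. The 7 brain markers summed to 3103 FPKM in brain, against 32.5 in liver and 27.5 in testis. The 7 liver markers summed to 48102 FPKM in liver and 12.4 in testis. They summed to 1632 FPKM in brain, where Ttr, the thyroid hormone carrier also made by the choroid plexus, gave 1625 of it. The 4 blood markers found of 6 summed to 277 FPKM in brain, against 138 in liver and 13.7 in testis. The tables give no read totals, so the depth of each library is unknown. A value of exactly 0 may stand for an estimate that failed, and such genes are described as listed at 0. By the deposited status this can hold for few members. The status was other than OK for 16 members in brain, 9 in liver and 10 in testis, while 601, 801 and 384 were listed at 0.

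Testis expressed more lincRNA genes than brain or liver. At 1 FPKM or more, here called detected, testis had 258 of 1028 members (25.1%, exact 95% binomial interval 22.5 to 27.9), brain 72 (7.0%, 5.52 to 8.74) and liver 25 (2.43%, 1.58 to 3.57). Such intervals cover the counting of genes only. Protein-coding genes showed no such gap between testis and brain, with 11676 of 20138 detected in testis, compared with 11786 in brain and 8842 in liver. Other noncoding classes had the testis excess too, so it was not particular to the members. Of 1438 antisense noncoding genes 26.4% were detected in testis, 5.29% in brain and 3.13% in liver. For 428 genes with the processed transcript biotype the shares were 32.9%, 21.7% and 12.1%. The order of the organs was the same for the members at 0.1, 5 and 10 FPKM, as the plot of shares by level shows.

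**Figure D1:**
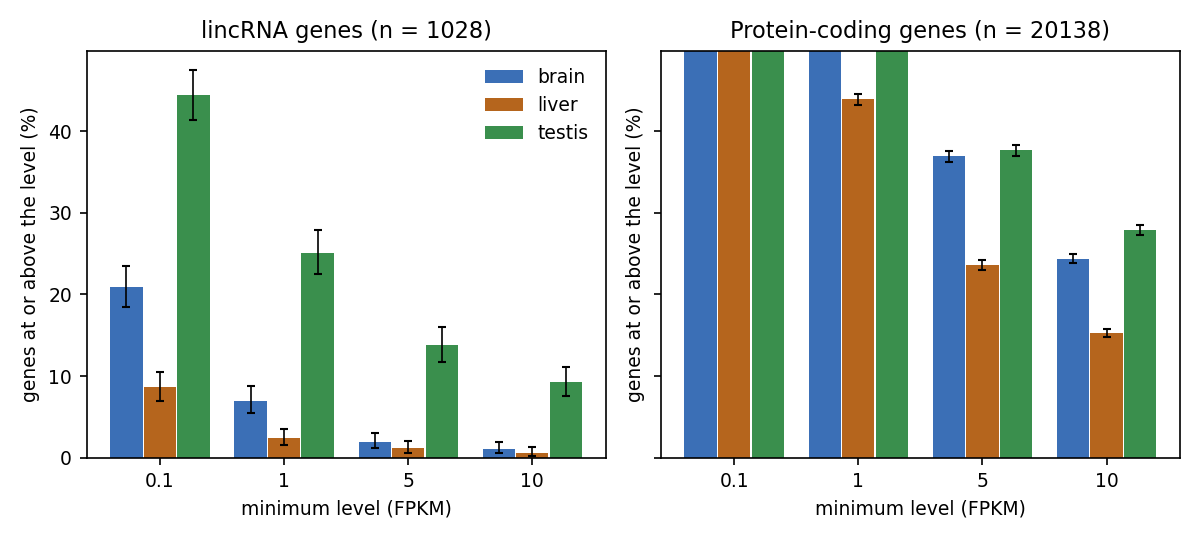
Share of genes (vertical axis, %) at or above 4 levels (horizontal axis, FPKM) in brain, liver and testis for 1028 lincRNA genes and 20138 protein-coding genes; bars are shares in 1 library and lines exact 95% binomial intervals. At 1 FPKM the lincRNA share is 25.1% in testis, 7.0% in brain and 2.43% in liver, while for protein-coding genes testis and brain are nearly level.

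Most members were below that level throughout: 723 of 1028 (70.3%) were under 1 FPKM in all 3 libraries, against 25.6% of protein-coding genes. Of the 305 detected anywhere, 224 were detected in testis alone, 37 in brain alone and 6 in liver alone. A further 19 were detected in brain and testis, 4 in brain and liver, 3 in liver and testis, and 12 in all 3. For protein-coding genes detection in all 3 organs was the most frequent pattern, with 7165 of 20138. In testis 384 members were listed at 0, in brain 601 and in liver 801.

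Detected members were also expressed at lower levels than detected protein-coding genes. Their median was 5.77 FPKM in testis, with quartiles of 2.31 and 16.03, against 9.16 for protein-coding genes. In brain the medians were 2.34 and 7.61 FPKM, and in liver 4.10 and 5.65. Of the FPKM sum over genes of 200 bp or more, members made up 0.831% in testis, 0.326% in brain and 0.0711% in liver. The 10 highest members carried 50.1% of the members' sum in testis, 87.1% in brain and 90.4% in liver.

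Levels were then compared between organs on log2(FPKM + 1), which shrinks changes at low levels. Calls of higher or lower needed a difference of 4-fold or more on this scale together with deposited confidence bounds that did not overlap. In testis 160 members were higher than in brain and 10 lower; over all 36809 identifiers 11.0% were higher and 7.19% lower. The shares of members were 15.6% (13.4 to 17.9) and 0.973% (0.467 to 1.78). The share higher in testis was thus above that of all identifiers and the share lower was below it, and among protein-coding genes 14.2% were higher and 10.4% lower. Antisense noncoding genes were close to the members, with 14.9% higher and 0.556% lower. The median difference over all members was 0.00, as over all identifiers. Among the 299 members detected in testis or brain it was 2.24, and among protein-coding genes chosen the same way it was -0.04. Most of the 299 passed that limit through testis, so the 2.24 largely restates the detection counts. The 10 members lower in testis were Pantr1, Ftx, Snhg12, Dbpht2, C130071C03Rik, A330102I10Rik, C230004F18Rik, Gm11008, Gm14827 and 4632415L05Rik.

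Against liver, 165 members were higher in testis and 4 were lower, beside 15.2% and 3.82% of all identifiers. The members' shares were 16.1% (13.9 to 18.4) and 0.389% (0.106 to 0.993), so the share higher was close to that of all identifiers and the share lower was below it. Among protein-coding genes 20.2% were higher (19.6 to 20.7) and 5.96% lower, so both shares of members were below those of coding genes. Both comparisons use the same testis library. The median difference was 0.04 over all members, 0.02 over all identifiers, and 2.53 among the 268 members detected in either organ. Among protein-coding genes detected in either organ it was 1.09. Most of the 268 passed the limit through testis, so the 2.53 too largely restates the detection counts. The 4 members lower in testis were AW112010, Gm11008, 9030622O22Rik and Gm16548.

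Between the other two organs few members differed. In brain 12 members were higher than in liver and 3 were lower, beside 9.15% and 2.79% of all identifiers. The members' shares were 1.17% (0.605 to 2.03) and 0.292% (0.0602 to 0.850), both below those of all identifiers, and most members were near 0 in both organs. The median difference was 0.00 over all members, 0.01 over all identifiers and 1.16 among the 81 members detected in either. Among protein-coding genes detected in either it was 0.94. Most of the 81 passed the limit through brain. The 3 lower members were AW112010, 9030622O22Rik and Gm16548.

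**Figure D2:**
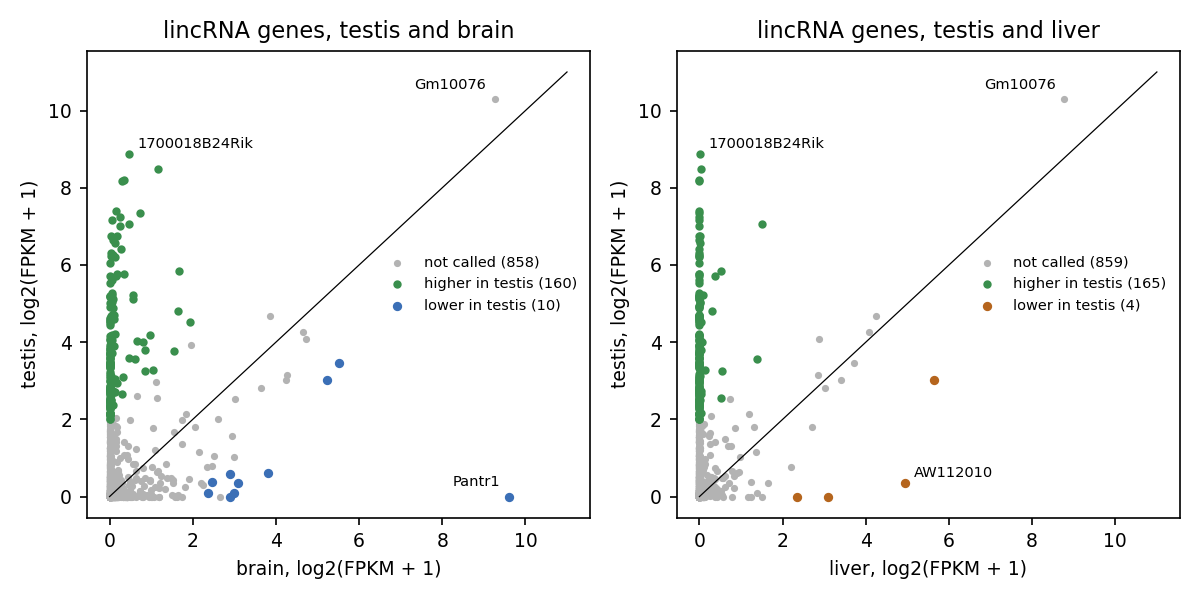
Level of each of 1028 lincRNA genes in testis (vertical axis) against brain (left) and liver (right), all on log2(FPKM + 1); each point is 1 gene in 1 library per organ, colours mark genes called higher or lower, and the line marks equal levels. Most of the 160 and 165 genes higher in testis lie along the left edge, and 6 of the 160 were detected in brain and 2 of the 165 in liver, and Pantr1 is far out on the brain axis.

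Expression of the testis lincRNA genes was mostly restricted to that organ. A gene was called restricted where it reached 5 FPKM or more in 1 organ and stayed under 0.5 FPKM in both others. Testis had 142 members at or above 5 FPKM, and 116 of them met the rule (81.7%, 74.3 to 87.7). Among protein-coding genes at that testis level 1229 of 7577 met it (16.2%, 15.4 to 17.1). Antisense noncoding genes were close to the lincRNA genes, with 160 of 201 (79.6%, 73.4 to 84.9). Genes with the processed transcript biotype had 36 of 71 (50.7%, 38.6 to 62.8). In brain 6 of 20 members were restricted (interval 11.9% to 54.3%) and in liver 1 of 12 (8.33%, 0.211 to 38.5). Counted over all 1028 members in place of those at 5 FPKM or more, 11.3% (9.41 to 13.4) were restricted to testis, 0.584% (0.214 to 1.27) to brain and 0.0973% (0.00246 to 0.541) to liver. Over all 36809 identifiers it was 5.53% for testis, 2.31% for brain and 1.0% for liver, so the members' share was above it in testis and below it in brain and liver. The restricted genes nearest the limits in testis were 4933427D06Rik at 5.16 and 4930553M12Rik at 5.28 FPKM, and just outside were 4930594O21Rik at 4.99 and 1700057H21Rik at 4.82 FPKM. On the other limit, 1700086P04Rik at 0.476 FPKM in brain was inside and 1500035N22Rik at 0.580 FPKM was outside.

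1700018B24Rik (ENSMUSG00000037910, mm9 chr3:48409654-48413023) was the highest of the restricted testis genes. It was at 466 FPKM in testis (deposited bounds 459 to 474), compared with 0.377 in brain and 0.0160 in liver. RefSeq lists it as a transcribed pseudogene. 1700010D01Rik (chrX:92927929-92928657) was at 292 FPKM in testis (286 to 299) and 0.265 in brain and was listed at 0 in liver. 4930571K23Rik (chr7:132512375-132514527), a gene of 1 exon that RefSeq lists as protein-coding, was at 287 FPKM in testis (285 to 290), compared with 0.230 in brain and 0 in liver. In all 3 genes the testis level stood above the other libraries by more than the width of the bounds.

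4930428N03Rik (chr14:25441360-25448422) followed with 168 FPKM in testis (160 to 176), compared with 0.110 in brain and 0 in liver. 4933406F09Rik (chr14:8244987-8255199) had 150 FPKM in testis (147 to 153), compared with 0.194 in brain and 0 in liver. Gm13942 (chr2:110891477-110897731) reached 162 FPKM in testis and 0.666 in brain, which put it just outside the restriction limit. Smkr-ps (chr6:29935329-29943776) reached 355 FPKM in testis (344 to 367), against 1.24 in brain (0.316 to 2.16) and 0.0251 in liver. No role is given here for these genes, most of which go by clone or model names.

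Low brain levels of testis genes were a general feature of these libraries. Over the 50 testis-restricted members at 20 FPKM or more in testis, 39 were above 0 in brain and 7 in liver. Their brain level was 0.0798% of the testis level at the median, and the highest was 1.4%. The restriction rule had kept only members under 0.5 FPKM in brain and liver, so low percentages follow in part from that choice. The 8 testis markers had brain levels of 0.0592% to 0.534% of their testis levels, with a median of 0.0751%. In liver the members' median was 0, and the markers' median was 0.000567%. What part of the low brain levels came from RNA of another library was not tested.

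Gene names followed the origin of the clones. Of 157 members named after RIKEN clone libraries made from adult testis, 127 were detected in testis (80.9%, 73.9 to 86.7), compared with 6 in brain and 2 in liver, and 75 were restricted to testis. Those names come from cDNAs first read in testis, so they are not independent of expression there. Of 650 members with Gm model names 92 were detected in testis (14.2%, 11.6 to 17.1), compared with 21 in brain and 8 in liver. Of 156 other RIKEN names 19 were detected in testis and 28 in brain, and of 65 members with other names 20 and 17. Without the testis clone names 131 of 871 members were detected in testis, compared with 66 in brain and 23 in liver, so the order of the organs was the same and the gap between testis and brain was smaller. Of these 41 were restricted to testis.

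The members were spread unevenly over the genome. Chromosome 2 held 221 of them, chromosome 4 held 177 and chromosome 11 held 146, and no other chromosome held more than 58. On the X chromosome 13 of 58 members were detected in testis (22.4%, 12.5 to 35.3) and on the autosomes 245 of 970 (25.3%, 22.6 to 28.1). Those intervals overlap, so no difference between X and autosomes was detectable with this number of genes. Testis-restricted members had a median span of 6282 bp and 3 exons, against 6937 bp and 3 exons for members under 1 FPKM in all 3 libraries. Of the 116, 82 are long noncoding RNA genes in RefSeq, 3 are protein-coding there, 5 are pseudogenes and 26 were not matched.

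Some lincRNA loci resemble protein-coding transcripts, and reads may be shared between the copies. In 67 of 1028 members (6.52%) an annotated transcript matched a protein-coding transcript over at least 100 bp at 95% identity or more. RefSeq lists 25 of all members as protein-coding and 13 as pseudogenes. Gm10076 (chr14:106081045-106081421) was the highest member of testis and liver, with 1249 FPKM in testis, compared with 612 in brain and 438 in liver. Its single exon is 99.5% identical over 383 bp to Rpl41, a ribosomal protein gene, and RefSeq lists it as a pseudogene, so its levels are uncertain. 1700010D01Rik matched Gm5941 over 507 bp at 97.6%, and Gm5941 was at 245 FPKM in testis, compared with 0.149 in brain and 0 in liver. Gm11008 matched the zinc finger gene Zfp966 over 624 bp at 97.6%; it was at 36.4 FPKM in brain, against 49.1 in liver and 7.12 in testis, and its bounds in testis ran from 2.12 to 12.1. Of the 116 testis-restricted members 7 had such a match. Without the 97 members that matched or that RefSeq lists as protein-coding or pseudogene, 6 members were lower in testis than in brain.

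In brain 1 gene stood far above the rest. Pantr1 (ENSMUSG00000060424, mm9 chr1:42705223-42723757) was at 776 FPKM in brain (734 to 817) and was listed at 0 in liver and testis. It made up 42.7% of the brain FPKM of all members. Pantr1 is known as a noncoding partner of Pou3f3, a POU-domain transcription factor of the developing nervous system, and starts on the opposite strand 30234 bp from it. Pou3f3 was at 12.6 FPKM in brain, against 0.00215 in liver and 0.0491 in testis, so both genes were highest in brain while Pantr1 had the higher level.

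The other brain-restricted members were near 5 to 8 FPKM, and 2 of them had a transcription factor gene as nearest coding neighbour. Dbpht2 (chr12:75398461-75401455), which RefSeq lists as protein-coding, was at 7.51 FPKM in brain (7.13 to 7.89), against 0.284 in testis and 0 in liver. A330102I10Rik (chr13:29106268-29132205), 60686 bp from the transcription factor gene Sox4, was at 6.99 FPKM in brain (5.56 to 8.43), against 0.0576 in testis and 0.0130 in liver. C230004F18Rik (chrX:58369561-58429166), 7255 bp from Cdr1, was at 6.46 FPKM in brain (5.66 to 7.27) and 0 in liver, and in testis it lay just under the limit of 0.5 FPKM.

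C130071C03Rik (chr13:83861160-83880913) was at 6.42 FPKM in brain (6.05 to 6.78) and was listed at 0 in both others. Its nearest protein-coding gene, Mef2c, a transcription factor of neurons and muscle 54476 bp away on the same strand, was at 35.3 FPKM in brain, against 0.259 in liver and 0.544 in testis. Gm14174, inside the Dlgap4 locus, was at 5.29 FPKM in brain and at 0 in the others, but its brain bounds ran from 0 to 10.6, so the limit of 5 FPKM lies within them. Outside the limits, Gm14827 was at 4.14 FPKM and 2810455O05Rik at 3.78 FPKM in brain.

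In liver few members were expressed. AW112010 (chr19:11122103-11125056), a gene known from immune cells, was at 29.9 FPKM in liver (28.8 to 31.1), against 1.32 in brain and 0.27 in testis. Ptprc, a marker of white blood cells, was at 1.10 FPKM in liver, against 0.289 in brain and 0.159 in testis. That is the organ order of AW112010, but the other blood markers found had other orders. Hba-a1 and Hba-a2 were highest in brain. Alas2 was highest in liver, as AW112010 was, but was higher in testis than in brain. Its level was 41.2 FPKM in liver and 6.91 FPKM in testis. Mir142hg, a member known from blood cells, was highest in testis at 0.369 FPKM. The part of blood cells in the level of AW112010 was not tested. 9030622O22Rik (chr2:147770476-147865939) was the 1 member restricted to liver, with 7.5 FPKM there (6.45 to 8.55) and 0 in brain and testis. Its nearest coding gene, 2674 bp away on the same strand, is Foxa2, a transcription factor of liver and gut that was at 11.6 FPKM in liver, against 0.212 in brain and 0.0132 in testis. Gm16548 was at 4.10 FPKM in liver, against 0.0387 in brain and 0 in testis, and lies inside the locus of Selp, a selectin of platelets and endothelium.

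The members that were expressed in all 3 organs included hosts of small nucleolar RNAs. Of 20 listed host genes 3 had the lincRNA biotype, and all 3 were above 5 FPKM in every library. Snhg12 (chr4:131864593-131866939) was at 45.1 FPKM in brain (42.3 to 47.9), against 12.2 in liver and 10.01 in testis, and was lower in testis than in brain by the rule, with a log2 difference of -2.07. Snhg20 was at 18.2, 6.21 and 7.85 FPKM in the same order. Epb41l4aos was at 23.9, 15.8 and 18.3 FPKM, so that none of its differences reached 4-fold. Tmem250-ps and 1810058I24Rik, which RefSeq lists as protein-coding, were also expressed in all 3 organs. Tmem250-ps had 17.8, 9.54 and 7.11 FPKM, highest in brain, and 1810058I24Rik had 13.6, 18.02 and 24.6 FPKM, highest in testis.

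Other widely known noncoding genes were mostly low. Of 20 genes on the list of general long noncoding RNAs 6 were members, and 1 of the 6 was detected. That was 1700020I14Rik (chr2:119420033-119433238), also called Cyrano, which carries a conserved microRNA site. It was at 25.5 FPKM in brain (25.1 to 25.9), against 6.37 in liver and 16.1 in testis, with no call at 4-fold. Hotair and Hottip, from the Hox clusters, were listed at 0 throughout. Lncpint, at up to 0.116 FPKM, Trp53cor1, at up to 0.0621 FPKM, and Lncenc1, at up to 0.130 FPKM, had their highest level in brain and were all below detection.

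Of the 5 genes listed for X inactivation 2 were members. Xist, which coats the inactive X chromosome of female cells, was at 0.0768 FPKM in brain, against 0.0185 in liver and 0.561 in testis of these males. Ftx, a gene of the X inactivation centre, was at 13.01 FPKM in brain (12.5 to 13.5), against 0.864 in liver and 0.539 in testis, and was called higher in brain against both. Its transcripts share 208 bp at 96.2% with Dennd5b.

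Of 12 listed microRNA hosts 3 were members. Mir670hg was at 12.6 FPKM in testis (10.8 to 14.3), compared with 1.92 in brain and 0 in liver, and was called higher in testis against both. Mir17hg, the host of an oncogenic microRNA cluster, had 2.46 FPKM in testis and 0.134 in brain. In liver it was listed at 5.56 FPKM with bounds of 0 to 18.9 and a low-data status, so that no order of liver and testis can be read from it. Mir142hg, a host known from blood cells, was at 0.369 FPKM in testis, against 0.177 in liver and 0 in brain.

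Of 19 genes listed for brain development 4 were members, and 3 of them were detected in brain and none elsewhere. Besides Pantr1 and C130071C03Rik these were Lhx1os, at 1.96 FPKM, and, below detection, A330008L17Rik at 0.344 FPKM. Both were listed at 0 in liver and testis. None of the 6 genes listed for liver was a member.

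**Figure D3:**
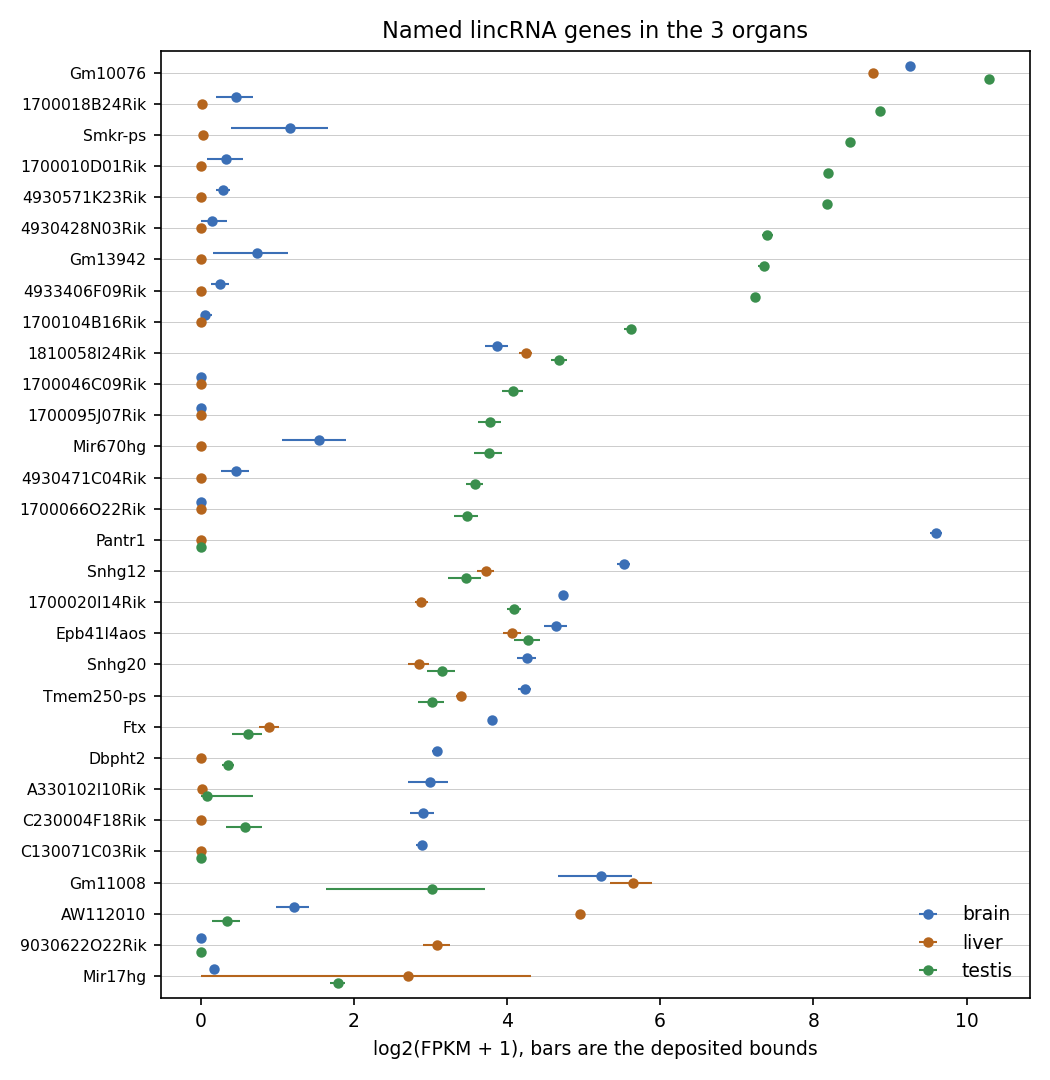
Levels of 30 named lincRNA genes in brain, liver and testis on log2(FPKM + 1) (horizontal axis), sorted by the organ of the highest level; points are values of 1 library each and lines the deposited bounds. The testis genes sit near 0 in brain and liver except for Gm10076, 1810058I24Rik, Mir670hg and Smkr-ps, which were detected in brain, while Snhg12, Snhg20 and Epb41l4aos are well above 0 in all 3 organs, and the liver bounds of Mir17hg reach 0.

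Each member was next paired with its nearest protein-coding gene by the gap between the loci in mm9. Loci that overlapped counted as a gap of 0, which was so for 61 of the 1028 members. With any other listed locus, coding or not, 243 members overlapped (23.6%). The organ of the highest level was the same in 126 of 246 pairs in which both genes were detected (51.2%, 44.8 to 57.6). Pairs of adjacent protein-coding genes gave 5613 of 12657 (44.3%, 43.5 to 45.2). The organ mix of members and protein-coding genes differs, so both were also split by organ. For members highest in testis, which gave most of the pairs, it was 95 of 194 (49.0%, 41.7 to 56.2), and for protein-coding genes highest in testis 2880 of 5610 (51.3%), so there was no excess in that organ. For members highest in brain it was 27 of 44 (61.4%, 45.5 to 75.6) beside 2235 of 5171 protein-coding genes (43.2%). Split by distance, the brain members had 6 of 7 where the loci overlapped. They had 9 of 19 at 1 to 10000 bp (47.4%, 24.4 to 71.1), beside 41.8% of protein-coding genes. Over 10000 bp away they had 12 of 18 (66.7%, 41.0 to 86.7), beside 45.3%.

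The neighbours of testis-restricted members were more often testis genes than protein-coding genes as a whole. Of 110 distinct coding neighbours of this kind 31 were higher in testis than in both brain and liver (28.2%, 20.02 to 37.6), beside 13.2% of all protein-coding genes. For neighbours of other members it was 89 of 708 (12.6%, 10.2 to 15.2). The share was 7 of 12 for members within 1000 bp of the neighbour (58.3%, 27.7 to 84.8) and 18 of 77 for those over 10000 bp away (23.4%, 14.5 to 34.4). Of the latter, those over 100000 bp away had 10 of 30 (33.3%, 17.3 to 52.8), so the share did not fall steadily with distance, and these intervals overlap. It was 11 of 35 where the genes were divergent, 12 of 43 on the same strand, 7 of 30 where they were convergent and 3 of 6 where the loci overlapped. Their intervals overlap. Neighbours of testis-restricted protein-coding genes were not counted in this way, so these shares do not show a trait particular to lincRNA genes.

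Within 1000 bp of a protein-coding gene, lincRNA genes mostly ran away from it. Within 1000 bp, 64 of 97 members were divergent, that is on opposite strands with the starts facing each other (66.0%), 30 were on the same strand and 3 were convergent. Of the 41 that were also detected 33 were divergent (80.5%). All 12 testis-restricted members in that range were divergent, and so were 12 of 15 members highest in brain. Among protein-coding genes with a neighbour within 1000 bp, 1177 of 2815 were divergent (41.8%). With the limit at 10000 bp, 84 of 235 members were divergent (35.7%), 124 were on the same strand and 27 were convergent. Of testis-restricted members 13 of 28 were then divergent, and of protein-coding genes 21.0%. RefSeq had starts for both genes of 18 of the 33 detected divergent pairs. All 18 lay on opposite strands with starts within 1000 bp of each other, at a median distance of 128 bp.

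Of the 33 divergent pairs 22 had their highest level in the same organ (66.7%, 48.2 to 82.0), 16 of 21 for testis members and 6 of 12 for brain members. Unlike in the share over all pairs above, 2 brain pairs whose coding gene was not detected in any organ were kept here, as not matching. In 4 of the 5 closest testis-restricted pairs the coding gene was itself called higher in testis than in both other organs. 1700046C09Rik (chr11:14460358-14499228) was at 15.9 FPKM in testis and 0 in the others, and Pom121l12, 15 bp away, was at 128 FPKM in testis, compared with 0.0633 in brain and 0 in liver. 4930471C04Rik had 11.0 FPKM in testis and 0.380 in brain, and Prss52, a serine protease gene 51 bp away, was at 59.3 and 0.0460 FPKM. 1700104B16Rik (chr8:34841021-34842286) had 48.0 FPKM in testis and 0.0379 in brain. Its neighbour Gtf2e2, which encodes a subunit of the general transcription factor TFIIE, was at 155 FPKM in testis, compared with 16.7 in brain and 8.77 in liver.

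Other pairs joined a lincRNA gene highest in testis to a gene expressed in all 3 organs, or to a gene of another organ. 1700095J07Rik (chr6:30254605-30281779) was at 12.8 FPKM in testis and 0 in the others, while Ube2h, a ubiquitin-conjugating enzyme 66 bp away, was at 19.9 FPKM in testis, compared with 13.7 in brain and 11.8 in liver. 4933406P04Rik had 5.31 FPKM in testis and 0.241 in brain, and Bclaf1 was at 16.8 and 15.4 FPKM. 4921522P10Rik had 11.8 FPKM in testis and 0.00694 in brain, and Efnb2, an ephrin ligand, had 0.889 FPKM in testis and 2.85 in brain. 4930589L23Rik had 6.01 FPKM in testis and was listed at 0 in brain, and Fnip2 had 0.397 and 1.12 FPKM. 4930570G19Rik, which was not restricted by the rule, had 14.2 FPKM in testis and 2.86 in brain. Negr1, a neuronal adhesion molecule 48 bp away, was at 22.3 FPKM in brain and 0.114 in testis. In those last 3 pairs the genes were highest in different organs.

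Brain pairs included Gm15631 with Cntn4, a neuronal cell adhesion gene. Gm15631 was at 1.81 FPKM in brain and 0.0238 in testis, and Cntn4 at 6.30 and 0.144 FPKM. Lhx1os was at 1.96 FPKM in brain, and Lhx1, a transcription factor gene 239 bp away, was below detection in brain at 0.322 FPKM and in testis at 0.394 FPKM. AI480526 was at 11.4 FPKM in brain, against 7.07 in liver and 6.00 in testis, beside Setd1b, a histone methyltransferase gene, at 2.86, 1.74 and 4.30 FPKM.

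**Figure D4:**
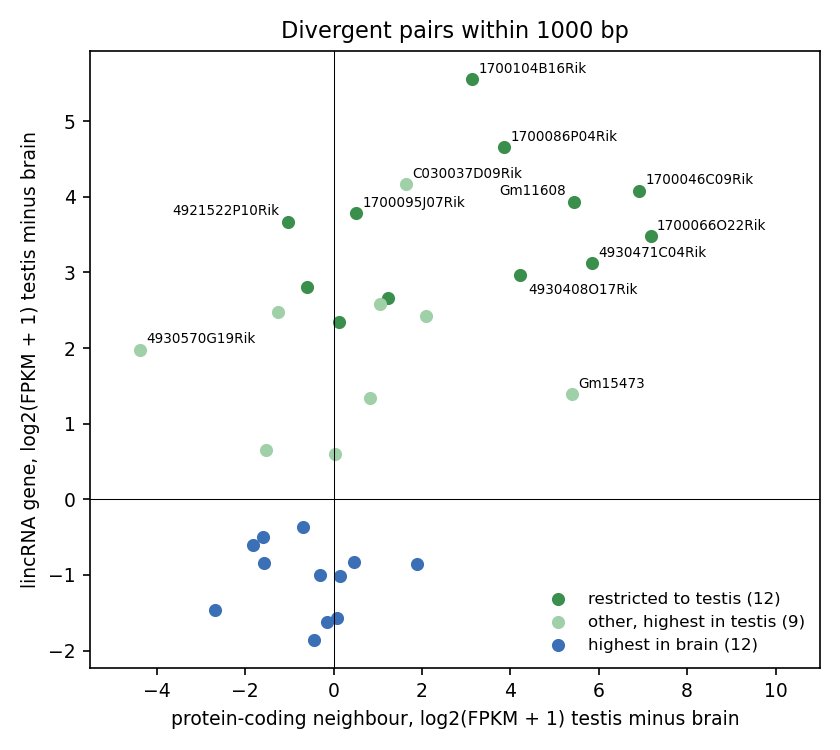
Difference between testis and brain on log2(FPKM + 1) for 33 detected lincRNA genes (vertical axis) and for the protein-coding gene within 1000 bp on the opposite strand (horizontal axis); each point is 1 pair, with 1 library per organ. Of the 12 testis-restricted genes 8 lie right of 1 on the horizontal axis, among them 1700046C09Rik and 1700066O22Rik, and 4921522P10Rik and 4930589L23Rik lie left of 0; so does 4930570G19Rik, which is no restricted gene.

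Some testis-restricted lincRNA genes lay near each other. Of the 116, 42 had another member within 100000 bp, and in 11 of the 42 (26.2%) the nearest such member was restricted to testis too. Over all members it was 43 of 379 (11.3%), each gene of a pair being counted. 4930428N03Rik lay 4827 bp from 4930542C16Rik, with 168 and 5.75 FPKM in testis. 4933406F09Rik lay 8381 bp from Gm10339, with 150 and 53.4 FPKM. 1700037C06Rik and Gm13001 overlapped, with 24.8 and 29.0 FPKM, and may share reads. The levels within a pair differed.

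Promoter windows of the members were mostly poor in CpG, those of testis-restricted members among them. The ratio of observed to expected CpG, which corrects for the content of C and G, had a median of 0.253 over the 70 of 116 testis-restricted members with a window. It was 0.714 over 31 members highest in brain, 0.238 over 310 members under 1 FPKM in all libraries, 0.256 over all 494 members with a window, and 0.389 over all 27025 RefSeq promoters. Among protein-coding genes the median was 0.576. The testis-restricted members in divergent pairs differed from the others, with a median of 0.847 over 6 against 0.197 over 64. Their windows hold the start of the coding gene as well where the starts are close, as in the printed windows of Gm11608 (ratio 1.05) and 1700095J07Rik (0.964). The windows of 1700010D01Rik and 4930571K23Rik had ratios of 0.0484 and 0.198.

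**Figure D5:**
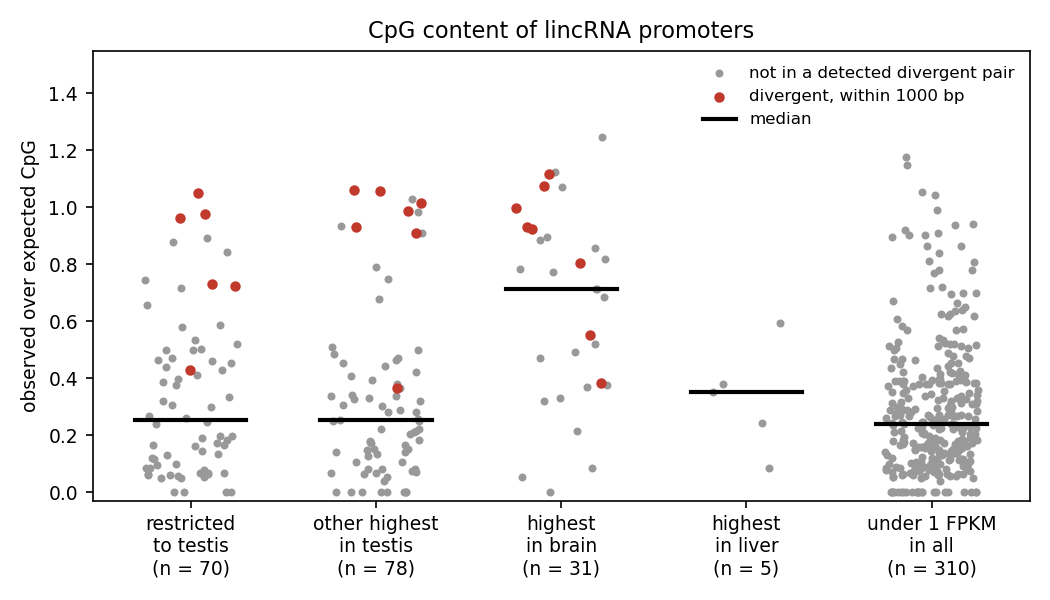
Observed over expected CpG (vertical axis) in RefSeq promoter windows of 494 lincRNA genes, grouped by where the gene was expressed (horizontal axis); each point is 1 gene, red marks detected genes in divergent pairs within 1000 bp, and bars are medians. Medians are 0.253 for testis-restricted and 0.714 for brain genes, and most red points lie above the median of their group.

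Short motifs were then counted in the same windows, on both strands. The CRE TGACGTCA, the element bound by CREB and CREM proteins, was in 4 of 70 testis-restricted windows (5.71%, 1.58 to 13.99) and in 1.88% of all RefSeq promoters. The 4 were those of 1700095J07Rik, Gm11335, Gm11608 and 4930515B02Rik, shown above, and 3 of them belong to divergent pairs. Outside the divergent pairs it was in 1 of 64. Testis levels of these 4 genes were 12.8, 5.69, 14.3 and 12.1 FPKM, beside a median of 14.1 FPKM over all 116 restricted genes. The shorter core TGACGT was in 8 of 70 (11.4%, 5.07 to 21.3) against 7.64% of all promoters. Among other members highest in testis the full CRE was in 2 of 78 windows (2.56%, 0.312 to 8.96), and among all members in 1.62%.

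The MYB letters GGCAGTT, part of the site of a family that includes the meiotic regulator MYBL1, were in 8 of 70 testis-restricted windows (11.4%, 5.07 to 21.3), all 8 outside the divergent pairs, and in 4.14% of all promoters. They were in 5.16% of the windows of members under 1 FPKM and in 6.45% of those of members highest in brain. Other members highest in testis had them in 5 of 78 windows (6.41%, 2.11 to 14.3), and all members in 6.28%. The X-box GTTGCCATG was in none of the 70, which allows a share of up to 5.13% by the exact interval, and in 0.759% of all promoters. TATAAA was in 11 of 70 (15.7%, 8.11 to 26.4) against 14.2%. The GC box GGGCGG was in 14 of 70 (interval 11.4% to 31.3%) against 35.9% of all promoters and 15.0% of the 494 member windows. It was in 10.3% of the windows of members under 1 FPKM, in 16.7% of those of other members highest in testis, and in 15 of 31 windows of brain members (48.4%, 30.2 to 66.9). The liver letters CAAAGTCCA and GTTAATNA were in 1 and 4 of 70, and the REST letters TTCAGCACC were in none of the 70. These matches describe letters in 1 window per gene and do not show binding.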

How the data were processed

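The authors deposited 1 table per organ that lists, per the file headers, the FPKM of each gene, its confidence bounds on both sides and whether the estimate succeeded; no level is named for the bounds. Cufflinks 2.0.0, Bowtie 0.12.5 and TopHat 1.4.0, with mm9 as genome build, are named by the submitters' processing notes; the gene annotation is not given in the sources used here. The tables have 36824, 36823 and 36824 rows for brain, liver and testis. FPKM of an identifier at more than 1 locus were summed, which touched 2 members. Biotype and strand came from GENCODE M21 by identifier, and positions from the tables. A sum over all genes scales FPKM, so a few very high genes in an organ can lower all its other values. A change of level and the assignment of reads between near-identical copies cannot be told apart in these tables.

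Values were compared on log2(FPKM + 1), with a pseudocount of 1. Shares carry exact (Clopper-Pearson) 95% intervals from scipy 1.17.1. Member transcripts were aligned to GENCODE M21 protein-coding transcripts with BLAST 2.17.0. RefSeq windows were matched by symbol, taking the first listed, and 49 of 494 members had more than 1. Distances between starts used the closest pair of all listed starts. Python 3.11.15, pandas 2.3.3 and matplotlib 3.10.9 were used.

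The genes named were the 8 highest members of each organ, the 5 highest restricted members, the 5 largest differences in each direction of each pair of organs, the 5 closest pairs of a restricted member and its coding neighbour, list members at 5 FPKM or more, and the 2 nearest members on each side of the restriction limits; others were chosen after their values were seen. The lists were snoRNA hosts, general long noncoding RNAs, X inactivation, microRNA hosts, brain development and liver. The members and lists were chosen with earlier results of these data known. Alternatives changed the pseudocount, scaling, fold, detection and restriction limits, estimate status, span, overlapping loci and the members kept.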

Additional observations from a re-analysis of the deposited data

How the results depend on the processing

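Of 122 alternative values over 13 results 91 stayed within 1.5 times the reported count, or inside the interval of a share, and 31 did not. Counts and shares have no sign, so no direction was checked. With a pseudocount of 0.1 FPKM, 288 members were higher and 49 lower in testis than in brain, 314 higher and 14 lower in testis than in liver, and 79 higher and 10 lower in brain than in liver. A minimum of 2-fold gave 33 lower in testis than in brain, 10 lower in testis than in liver, and 46 higher and 7 lower in brain than in liver. A minimum of 8-fold gave 98 higher and 2 lower against brain, 106 higher and 2 lower against liver, and 2 higher in brain than in liver. Scaling to the protein-coding FPKM sum moved the median difference over genes at 1 FPKM or more in any library. The shift was -0.49 for testis minus brain, from 0.06 to -0.43, and 0.63 for brain minus liver. Under this scaling 18 members were lower in testis than in brain and 25 higher in brain than in liver. The median-ratio scaling moved those medians by -0.45 between testis and liver and by -0.43 between brain and liver, and restricted 2 members to liver. At 0.1 FPKM 215, 89 and 456 members were detected in brain, liver and testis, and at 5 FPKM 20, 12 and 142. Of members whose locus overlaps no other, 15 were detected in liver. With restriction set at 1 FPKM and under 0.1, 16 members were restricted to brain, 6 to liver and 183 to testis. Among alternatives chosen after the data were seen, leaving out testis clone names left 131 members detected in testis and 41 restricted to it. Leaving out members that resemble coding genes or pseudogenes left 6 lower in testis than in brain. These counts moved because the limit, the scaling or the set of genes changed.

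No paired analysis was possible because each organ had 1 library. The tables give no read totals, so the lowest level that each library detects is unknown.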
